A study of Mus musculus with 12 samples.

Results

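The ETS family is a group of transcription factors, and 9 of its genes were followed here: Spib, Ehf, Spi1, Ets1, Ets2, Etv3, Etv6, Elk3 and Fli1. They were chosen from the 19937 genes measured on the arrays, by symbol, as probe sets annotated to 1 of these genes and to no other gene. Each of the 9 had exactly 1 such probe set, so no probe set was picked by its level. Spib and Ehf were singled out because they were known to be lower in IL-2 knockout cells of these same samples. Their values are therefore given as a description with no test, and counts of genes past the threshold are over the other 7.

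Mouse bone marrow was cultured with GM-CSF at 200 ng/ml, and the resulting dendritic cells were taken at day 7 on beads for CD11c, with a stated purity above 95%. RNA from wild-type cells and from IL-2 knockout cells (Il2 disrupted in all cells), each untreated or given curdlan for 6 h, was measured on 12 arrays in 4 groups of 3. Curdlan is a beta-glucan particle recognised by Dectin-1, and IL-2 is a cytokine that dendritic cells release after such stimulation. The strain label reads B6.129P2-Il2tm1Hor/J on all 12 arrays, wild type included, and the genotype was taken from the genotype label. The labels do not say whether the 3 samples of a group came from separate mice, so the p-values measure only the spread between these samples.

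ETS factors share a winged helix-turn-helix domain that binds DNA around the core letters GGAA. Spi1 encodes PU.1, which sets up the myeloid lineage and is needed for dendritic cells to form. Spib encodes Spi-B, its closest relative, best known in B cells, plasmacytoid dendritic cells and the M cells of the gut. Ehf is known mainly as an epithelial factor, with some reports in dendritic cells. Ets2 and Elk3 are among the members whose activity is set by ERK kinases, while Etv3 and Etv6 act mainly as repressors. Fli1 and Ets1, neighbours on chromosome 9, act in blood cells, the vessel wall and lymphocytes.

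Levels are log2 array signals, on which a difference of 1 is a doubling, and ± is the SD of 3 arrays. Samples of 1 genotype with the same replicate number are here called a culture, a name that the labels do not give. They deviated from their group means together, and same-numbered untreated samples of different genotypes did so too, more weakly. Contrasts averaged over treatments take both arrays of a culture as independent, so their p-values may be too small. The arrays were alike: their medians lay between 6.59 and 6.64, and correlations between arrays across genes between 0.981 and 0.998. A gene is said to be called, to rise or to fall where the limma p, adjusted by Benjamini-Hochberg over all 19937 genes, was under 0.05. Groups of 3 arrays that do not overlap were common. With curdlan this held for 38% of all genes in wild-type and 40.3% in knockout cells. Between genotypes it held for 15.4% in untreated and 14.6% in curdlan-treated cells. Il2 served as a check of the labels, although the sources used here do not say whether its probes lie in the disrupted part. Its signal was 7.80, 7.22 and 6.74 in wild-type cells with curdlan, against 5.37 to 6.04 on the other 9 arrays. The receptor gene Il2ra was lower in untreated knockout cells (-1.15, adjusted p = 0.00588), and Clec7a, which encodes Dectin-1, differed by 0.14 (adjusted p = 0.379). Of 12 dendritic cell markers, 5 lay above the upper quartile of genes on every array (Itgax, H2-Ab1, Cd74, Ccr7 and Clec9a) and 0 lay below the lower quartile on every array. Of 11 measured macrophage markers, 8 lay above the upper quartile on every array, among them Adgre1 and Mertk. In such bulk RNA, fewer cells of a type and less RNA per cell cannot be told apart.

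**Figure D1:**
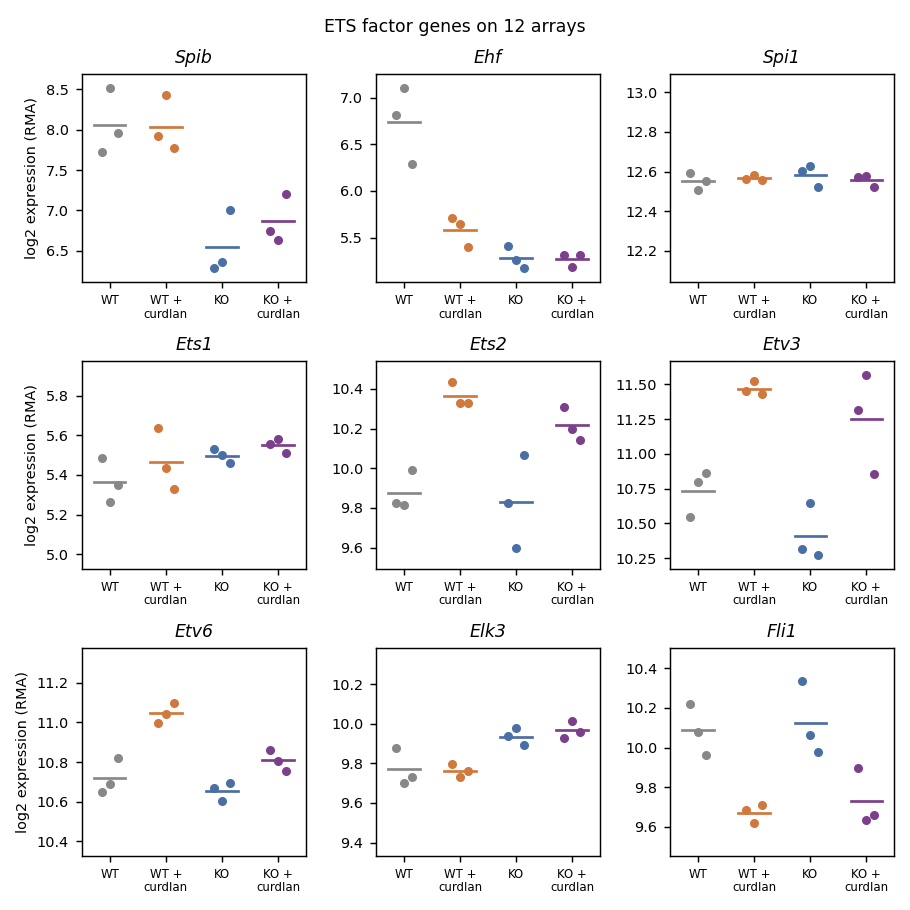
Log2 signal of the 9 ETS genes on each of the 12 arrays, with 1 panel per gene, 1 point per array and a bar at each group's mean. The Spib arrays run from 6.28 to 7.20 in knockout and from 7.72 to 8.52 in wild-type cells. Ehf is above 6 only on the 3 untreated wild-type arrays, and Spi1 stays between 12.51 and 12.63.

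Spib (probe set 10562812, chromosome 7) was lower in knockout cells whether or not curdlan was given, and its changes with curdlan were small. The untreated wild-type arrays read 7.72, 8.52 and 7.96, and the untreated knockout arrays 6.28, 6.35 and 7.00. With curdlan, wild-type cells read 7.92, 8.42 and 7.77 and knockout cells 6.75, 6.64 and 7.20. All 6 wild-type arrays were above all 6 knockout arrays, and culture 2 of the wild type and culture 3 of the knockout were the highest of their genotype in both treatments. The share of all genes separated in this way was not computed, and Spib was singled out as lower in the knockout. The wild-type means were 8.06 ± 0.41 untreated and 8.04 ± 0.34 with curdlan, and the knockout means 6.55 ± 0.40 and 6.86 ± 0.30 (SD, n = 3).

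The Spib difference, knockout minus wild type, was -1.52 (SE 0.25) in untreated cells, a signal 2.86-fold lower. With curdlan it was -1.18 (SE 0.25), or 2.26-fold lower. The curdlan change of Spib was -0.03 (SE 0.25) in wild-type cells and 0.31 (SE 0.25) in knockout cells. By culture, these changes were 0.20, -0.09 and -0.19 in the wild type and 0.46, 0.28 and 0.20 in the knockout. The wild-type cultures thus moved in both directions, and the 3 knockout cultures all moved slightly upward.

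Ehf (probe set 10485445, chromosome 2) had another pattern, in which its signal was raised in 1 group, the untreated wild-type cells. There it read 6.81, 7.10 and 6.29, and after curdlan 5.71, 5.65 and 5.40. Knockout cells read 5.41, 5.26 and 5.17 untreated, and 5.31, 5.19 and 5.31 with curdlan. The 3 untreated wild-type arrays stood apart from the other 9, whose values lay close together. On 5 of the 12 arrays, Ehf was below the lower quartile of all genes, which lay between 5.30 and 5.49. Differences against those dim arrays may therefore understate the change in RNA.

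With curdlan the 3 wild-type cultures of Ehf differed from their untreated arrays by -1.11, -1.46 and -0.89, with a mean of -1.15 (SE 0.16), or 2.22-fold lower. In knockout cells, the changes were -0.10, -0.07 and 0.14, with a mean of -0.01 (SE 0.16). Between genotypes, Ehf differed by -1.46 (SE 0.16) in untreated cells, 2.74-fold lower in the knockout. With curdlan the difference was -0.32 (SE 0.16), and the arrays of the 2 genotypes still did not overlap, as for 14.6% of all genes.

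**Figure D2:**
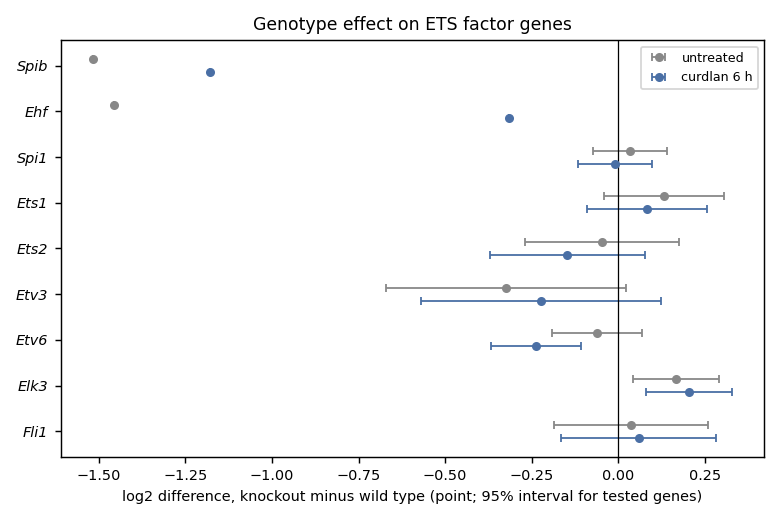
Log2 difference between knockout and wild-type cells for the 9 ETS genes, untreated and with curdlan, with bars for the 95% interval of the 7 tested genes and points alone for Spib and Ehf. Spib lies below 0 in both treatments (-1.52 and -1.18). Ehf lies far below 0 in untreated cells (-1.46) and less far below 0 with curdlan (-0.32).

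Marker lists of cells in which Spib or Ehf is well known were read beside these values. The mean log2 level of 12 dendritic cell markers was 10.12 to 10.27 on the untreated and 9.97 to 10.07 on the curdlan-treated wild-type arrays. On the knockout arrays it was 9.66 to 9.76 untreated and 9.64 to 9.75 with curdlan, below all wild-type arrays. Such a mean is moved by a few large changes. With curdlan in wild-type cells, 2 of the 12 were called higher and 2 lower (7.27% and 12.3% of all genes), with a median of -0.01. There Cd209a went from a mean of 11.14 to 8.27, and Ccr7 from 11.96 to 12.94. The median genotype difference of the 12 in untreated cells was -0.14. Averaged over treatments, 4 of the 12 dendritic cell markers were lower in knockout cells (limma, adjusted p) and 0 were higher. Of all genes, 3.56% were lower and 1.48% higher. The median of the 12 was -0.12 against 0.01 over all genes. The lectin Cd209a was lower (-1.94, adjusted p = 0.000579), as was the peptidase Dpp4 (-1.33, adjusted p = 0.00132). Kmo (-0.99, adjusted p = 0.0304) and the classical dendritic cell factor Zbtb46 (-0.26, adjusted p = 0.0371) also passed, but lost the call in 9 and 17 of 25 alternative fits or subsets. Itgax and H2-Ab1 had untreated differences of 0.08 (adjusted p = 0.796) and -0.01 (adjusted p = 0.993). The part of these marker levels in the Spib and Ehf values was not tested.

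Of 11 measured B cell markers, 4 lay below the lower quartile of genes on every array (Cd79a, Ms4a1, Ebf1 and Fcer2a). Of the same 11, 1 lay above the upper quartile on every array (Blnk). The list's mean level was 6.13 to 6.14 in untreated wild-type cells and 6.10 to 6.17 in untreated knockout cells. Of 10 measured plasmacytoid dendritic cell markers, 0 were called between genotypes in untreated cells, with mean levels of 7.93 to 7.99 in the wild type and 7.90 to 8.11 in the knockout. Averaged over treatments, where 3.56% of all genes were lower, 1 of the 10 was lower in knockout cells, Pacsin1 (-0.72, adjusted p = 0.0192), kept in 18 of 25 alternatives. Its arrays ran from 7.01 to 7.34 in knockout and from 7.45 to 8.34 in wild-type cells. With curdlan, 4 of the 10 rose in wild-type and 5 in knockout cells, where 7.27% and 9.29% of all genes were called higher. Among them were Irf7 (3.35 and 2.72, adjusted p = 1.58e-06 and 1.13e-05) and Bst2 (1.25 and 0.93, adjusted p = 0.000312 and 0.00225). Tlr7 also rose in both, with wild-type means of 10.39 untreated and 10.86 with curdlan, kept in 22 and 19 of 26 alternatives. In wild-type cells 6 of the 10 were not called, among them Siglech, with means of 5.87 and 5.96. The Spib changes were -0.03 and 0.31. Of 12 epithelial markers, 0 lay above the upper quartile and 3 below the lower quartile on every array (Cldn7, Grhl2 and Esrp1). Their mean levels overlapped between untreated wild-type (5.94 to 6.10) and knockout cells (5.83 to 6.07). Of 8 M cell markers, Gp2 lay below the lower quartile on every array, and Ccl9, Tnfaip2 and Anxa5 lay above the upper quartile on every array. The mean level of the 8 was 9.05 to 9.14 in untreated wild-type and 9.05 to 9.13 in untreated knockout cells. Averaged over treatments, 2 of the 8 were lower in knockout cells, against 3.56% of all genes. They were Marcksl1 (-0.40, adjusted p = 0.0224) and Tnfrsf11a (-0.22, adjusted p = 0.0287), kept in 16 and 13 of 25 alternatives. Of the 11 macrophage markers, 0 were called between genotypes in untreated cells, with curdlan or on average. The epithelial cadherin Cdh1 fell with curdlan in wild-type (-0.96, adjusted p = 0.0274) and in knockout cells (-0.95, adjusted p = 0.0279), kept in 19 and 20 of 26 alternatives. It was bright for its list, at 10.29, 10.14 and 9.24 in untreated wild-type cells.

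The genes most like Spib across the 12 arrays were listed by Pearson correlation, as a description. They were the transporter gene Slc43a3 (r = 0.978), Suz12 (r = 0.941) and Ezh2 (r = 0.920), which encode subunits of the Polycomb repressive complex, Clec2i (r = 0.926) and Tmco6 (r = 0.921). Slc43a3 had group means of 10.38 and 10.27 in wild-type cells and 9.68 and 9.83 in knockout cells, untreated and with curdlan. Ecm1 ran most opposite to Spib (r = -0.946), with 10.82 and 10.78 in wild-type and 11.39 and 11.28 in knockout cells, and Tnfrsf1a came next (r = -0.935). Ehf was most like Klrd1 (r = 0.961), Dcaf12 (r = 0.959), Cyp2s1 (r = 0.949), Kcnip3 (r = 0.944) and Mns1 (r = 0.944). Klrd1 lay below the lower quartile of genes on every array, and the group means of Dcaf12 ran only from 11.25 to 11.37. Kcnip3 shared the shape of Ehf, with a mean of 7.79 in untreated wild-type cells and 6.51, 6.49 and 6.20 in the other groups. Pex14 (r = -0.961, group means of only 8.81 to 8.92) and Ndel1 (r = -0.885) ran most opposite to Ehf. The arrays share cultures and groups, so these 12 points are not independent.

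The response to curdlan was asked of the other 7 members within each genotype. Ets2, Etv3 and Etv6 rose and Fli1 fell in wild-type cells, while Spi1, Ets1 and Elk3 did not pass the test. In knockout cells Ets2 and Etv3 rose and Fli1 fell. So 3 of 7 were higher and 1 lower in the wild type, where 7.27% of all genes tested were called higher and 12.3% lower. In the knockout, 2 of 7 were higher and 1 lower, where 9.29% of all genes were higher and 13.2% lower. Elk3 changed by -0.01 (adjusted p = 0.954) and 0.03 (adjusted p = 0.701). The median change of the 7 was 0.10 and 0.05, against 0.02 and 0.04 over all genes. The comparisons between genotypes use these same arrays.

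Etv3 (probe set 10492997, chromosome 3), a repressor known from macrophages, had the largest rise among the 7 members in both genotypes. Wild-type cells read 10.55, 10.80 and 10.86 untreated, and 11.46, 11.52 and 11.43 with curdlan. Knockout cells read 10.32, 10.65 and 10.27 untreated, and 11.32, 11.57 and 10.86 with curdlan. The treated arrays lay above the untreated arrays in each genotype, and the third knockout culture had the lowest treated value. The rise was 0.73 (SE 0.16, adjusted p = 0.00759), or 1.66-fold, in wild-type cells. In knockout cells it was 0.84 (SE 0.16, adjusted p = 0.00439), or 1.79-fold. The wild-type call was lost without wild-type culture 1 (adjusted p = 0.078) or 2 (0.0594), and the knockout call without knockout culture 1 (0.0693).

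Ets2 (probe set 10437160, chromosome 16), a nuclear target of ERK signalling, rose in both genotypes as well. Wild-type cells read 9.82, 9.82 and 9.99 untreated, and 10.43, 10.33 and 10.33 with curdlan. Knockout cells read 9.82, 9.60 and 10.07 untreated, and 10.31, 10.20 and 10.14 with curdlan. The groups did not overlap in either genotype, as for 38% of all genes in the wild type and 40.3% in the knockout. Knockout culture 3 changed by 0.07 only, against 0.49 and 0.60 in cultures 1 and 2. The rise was 0.49 (SE 0.10, adjusted p = 0.00647), or 1.40-fold, in wild-type cells and 0.39 (SE 0.10, adjusted p = 0.0205), or 1.31-fold, in knockout cells. The wild-type call was lost without wild-type culture 1 (adjusted p = 0.078) or 2 (0.0585). The knockout call was lost without untreated array 1 (0.0632), curdlan array 1 (0.076) or 2 (0.0603), knockout culture 1 (0.169) or 2 (0.095), and with only the 6 knockout arrays fitted (0.0654).

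Etv6 (probe set 10542275, chromosome 6), also called TEL, is a repressor needed for blood stem cells in the bone marrow. Wild-type cells read 10.65, 10.69 and 10.82 untreated, and 11.00, 11.04 and 11.10 with curdlan. Knockout cells read 10.67, 10.60 and 10.69 untreated, and 10.86, 10.80 and 10.76 with curdlan. The untreated values of the genotypes overlapped, while all 3 treated wild-type values lay above the treated knockout values. The wild-type rise of 0.33 (SE 0.06, adjusted p = 0.00307) held its call in 26 of 26 alternatives. The knockout change was 0.15 (SE 0.06, adjusted p = 0.0846), called only with culture as a random block (adjusted p = 0.0377). The difference between these changes was itself tested and was -0.18 (95% interval -0.36 to 0.01, adjusted p = 1).

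Fli1 (probe set 10592067, chromosome 9), a factor of blood and vessel wall cells, fell in both genotypes. Wild-type cells read 10.22, 10.08 and 9.96 untreated, and 9.68, 9.62 and 9.71 with curdlan. Knockout cells read 10.34, 10.06 and 9.98 untreated, and 9.90, 9.63 and 9.66 with curdlan. Treated arrays lay below untreated arrays in each genotype, and all 6 cultures moved down, by 0.25 to 0.54. The change was -0.42 (SE 0.10, adjusted p = 0.0142) in wild-type cells and -0.40 (SE 0.10, adjusted p = 0.0187) in knockout cells, 1.34-fold and 1.31-fold lower by their means. The wild-type call was lost without untreated array 1 (adjusted p = 0.0604) or cultures 1 (0.117) or 2 (0.104). The knockout call was lost without untreated array 1 (0.0745), curdlan array 2 (0.0791) or culture 2 (0.0818), and with only the 6 knockout arrays fitted (0.0563).

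**Figure D3:**
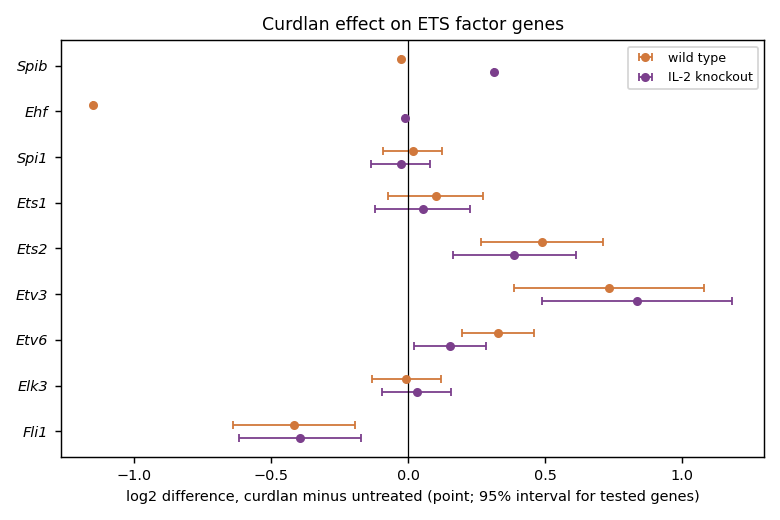
Log2 change with curdlan for the 9 ETS genes in wild-type and knockout cells, with bars for the 95% interval of the 7 tested genes and points alone for Spib and Ehf. Etv3 (0.73 and 0.84) and Ets2 (0.49 and 0.39) lie above 0 and Fli1 (-0.42 and -0.40) below 0 in both genotypes. Ehf is far below 0 in wild-type cells only (-1.15).

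Spi1 (probe set 10473809, chromosome 2) varied little. Its 12 values ran from 12.51 to 12.63, a range of 0.12, and all groups overlapped. The curdlan change was 0.02 (95% interval -0.09 to 0.12, adjusted p = 0.853) in wild-type cells and -0.03 (interval -0.13 to 0.08, adjusted p = 0.694) in knockout cells. The genotype difference was 0.03 (interval -0.07 to 0.14, adjusted p = 0.933) untreated and -0.01 (interval -0.12 to 0.10, adjusted p = 0.968) with curdlan.

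Ets1 (probe set 10584142, chromosome 9), a lymphocyte and endothelial factor, was dim, with values of 5.26 to 5.64 and 2 of 12 arrays below the lower quartile of genes. Its curdlan change was 0.10 (interval -0.07 to 0.27, adjusted p = 0.418) in wild-type and 0.05 (interval -0.12 to 0.23, adjusted p = 0.638) in knockout cells. Fli1 and Ets1 are next to each other on chromosome 9, with 0 protein-coding genes between them in RefSeq (GRCm38.p6). Fli1 passed the test for a fall and Ets1, close to background, did not pass in either direction.

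The promoters of the members that rose with curdlan are shown because Ets2, Etv3 and Etv6 moved the same way. They are the 250 bases before the gene start, from RefSeq on GRCm38.p6, where 5 of the 9 members were listed (Spib, Ets2, Etv3, Etv6 and Elk3). Capitals mark GGAA, the ETS core, or its reverse complement TTCC, a marking chosen after longer motifs had been searched. They lie at chr16:95702157-95702406 (Ets2, plus strand), chr3:87525328-87525577 (Etv3, plus strand) and chr6:134035450-134035699 (Etv6, plus strand).
Ets2: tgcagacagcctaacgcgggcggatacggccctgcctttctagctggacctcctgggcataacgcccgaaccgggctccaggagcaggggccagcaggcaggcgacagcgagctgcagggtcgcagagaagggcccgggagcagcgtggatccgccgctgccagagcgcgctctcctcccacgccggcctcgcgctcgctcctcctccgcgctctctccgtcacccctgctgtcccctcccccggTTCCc
Etv3: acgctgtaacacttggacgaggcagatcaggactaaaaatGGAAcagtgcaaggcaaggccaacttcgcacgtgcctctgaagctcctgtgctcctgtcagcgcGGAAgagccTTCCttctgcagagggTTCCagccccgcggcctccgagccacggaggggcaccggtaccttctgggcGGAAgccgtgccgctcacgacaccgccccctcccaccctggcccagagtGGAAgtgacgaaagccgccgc
Etv6: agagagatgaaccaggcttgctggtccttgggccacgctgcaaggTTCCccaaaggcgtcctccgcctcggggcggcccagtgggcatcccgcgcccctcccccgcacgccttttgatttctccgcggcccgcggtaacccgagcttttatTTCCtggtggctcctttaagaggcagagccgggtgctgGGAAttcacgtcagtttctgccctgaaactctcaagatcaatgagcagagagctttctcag

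The promoters above hold 1 core in Ets2, 6 in Etv3 and 3 in Etv6, while those of Spib and Elk3 hold 1 and 2. Among all 32851 promoters of this length, 93.4% hold at least 1 core, with a median of 3 and quartiles of 2 and 4. The count in Etv3 was above the upper quartile and that in Ets2 below the lower quartile. Longer motifs were searched on both strands and gave 0 matches in the 5 promoters. They were CCGGAAG (an ETS site, in 6.91% of all promoters), GAGGAAG (PU.1, 10.6%), GGAANNGAA (an ETS-IRF composite, 6.99%), GAAANNGAA (interferon response, 7.13%), TGANTCA (AP-1, 6.75%), GGANTTTCC (NF-kB, 1.07%) and TTCNNNGAA (STAT, 7.02%). The motif pairs that contain GGAA or GAGGAA letters can overlap one another. A match of letters is a description and not a binding site.

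**Figure D4:**
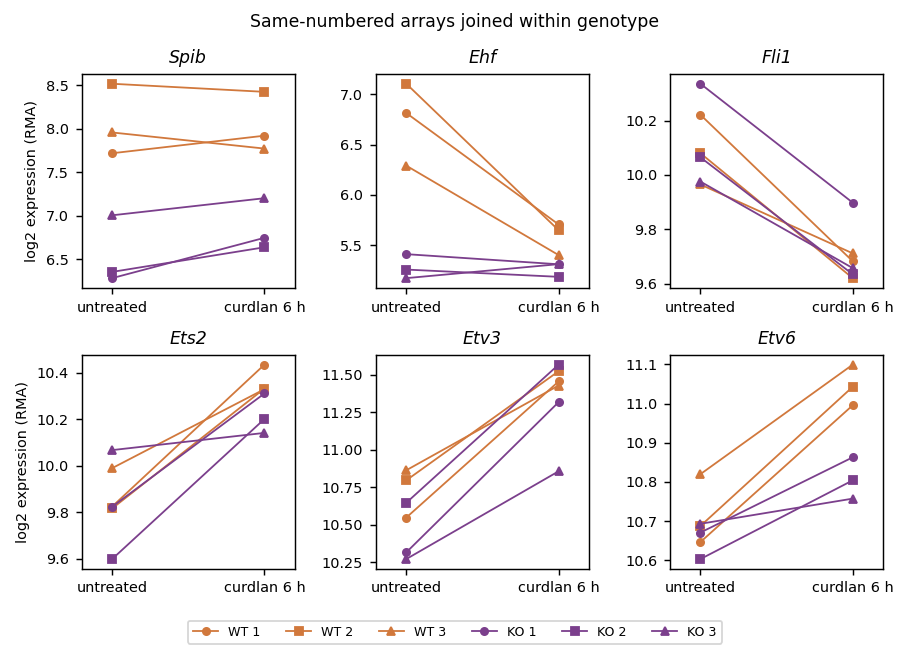
Log2 signal of Spib, Ehf, Fli1, Ets2, Etv3 and Etv6 (vertical axis) without and with curdlan (horizontal axis), with a line for each culture, orange for wild type and purple for knockout, and a marker shape for each replicate number. The 6 lines of Etv3 and of Ets2 run upward and the 6 of Fli1 downward, with knockout culture 3 of Ets2 nearly flat (0.07). The 3 wild-type lines of Ehf run steeply downward, and its knockout changes lie between -0.10 and 0.14.

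Between genotypes, Spib and Ehf set aside, 0 of the other 7 members were higher or lower in untreated cells. Of all genes, 0.231% were called higher and 1.19% lower there, 283 in all. The count was 699 with the replicate number as a block over both genotypes, 386 with culture as a random block and 70 with only the 6 untreated arrays fitted. With curdlan, again 0 of 7 were called in either direction, against 0.105% higher and 0.517% lower over all genes. Averaged over both treatments, 1 of 7 was higher, Elk3, and 0 were lower, against 1.48% and 3.56% of all genes. In the interaction, 0 of 7 members were called, and 0% of all genes (limma, 552 at an unadjusted p under 0.05, lowest adjusted p 0.357). A curdlan call in 1 genotype alone was therefore not shown to differ between genotypes.

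Elk3 (probe set 10371959, chromosome 10), a ternary complex factor that works with SRF and can repress its targets, was slightly higher in knockout cells. Wild-type cells read 9.88, 9.70 and 9.73 untreated, and 9.80, 9.73 and 9.76 with curdlan. Knockout cells read 9.94, 9.98 and 9.89 untreated, and 9.93, 10.01 and 9.96 with curdlan. The lowest knockout array (9.89) lay just above the highest wild-type array (9.88). The share of all genes with such a separation was not computed. The averaged difference was 0.19 (SE 0.04, 95% interval 0.10 to 0.27, adjusted p = 0.0223), or 1.14-fold. It was 0.17 (adjusted p = 0.251) untreated and 0.20 (adjusted p = 0.154) with curdlan. The averaged SE and p take the untreated and treated arrays of a culture as independent, and may be too small. With culture as a random block, 1 of the 7 members was still called higher on average, while all genes called went from 1005 to 682.

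The averaged Elk3 call depended on single arrays and was lost without untreated wild-type array 2 (adjusted p = 0.0692) or 3 (0.0643), treated wild-type array 2 (0.07) or 3 (0.0516), untreated knockout array 1 (0.0519) or 2 (0.0557), or treated knockout array 2 (0.0537). Without wild-type culture 2 (0.183) or 3 (0.128), or knockout culture 1 (0.0765) or 2 (0.105), it was lost too. The difference itself stayed between 0.16 and 0.22 in all 25 alternatives.

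Etv6 was the next nearest, with an averaged difference of -0.15 (adjusted p = 0.0679). It differed by -0.06 (adjusted p = 0.858) in untreated cells and by -0.24 (95% interval -0.37 to -0.11, adjusted p = 0.113) with curdlan. The averaged value passed with a trended, robust variance (adjusted p = 0.0392), without untreated wild-type array 1 (0.0486) and without wild-type culture 1 (0.041). Etv3 had an averaged difference of -0.27 (adjusted p = 0.237) and passed only without knockout culture 2 (0.0485). Ets1 had an averaged difference of 0.11 (adjusted p = 0.387) and passed only without wild-type culture 1 (0.0316). For Ets2 and Fli1 the averaged differences were -0.10 (adjusted p = 0.588) and 0.05 (adjusted p = 0.828).

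Other genes of the ETS family and of routes that act with it were read from lists chosen with earlier results known. With curdlan, 7.27% of all genes were called higher and 12.3% lower in wild-type cells. Of 17 other ETS genes measured, 1 was lower and 0 were higher there, with a median of 0.00 against 0.02 over all genes. That gene was Etv5, a target of receptor and ERK signalling. It read 8.94 to 9.18 untreated and 8.36 to 8.47 with curdlan in the wild type, and 8.58 to 8.95 against 8.05 to 8.34 in the knockout. The treated arrays lay below the untreated arrays in each genotype, with changes of -0.62 (adjusted p = 0.00188) and -0.59 (adjusted p = 0.00283), called in all 26 alternatives. In knockout cells, where 9.29% of all genes were higher and 13.2% lower, 1 of the 17 was higher, Etv4 (0.37, adjusted p = 0.0147). There 2 were lower, Etv5 and Elk1 (-0.18, adjusted p = 0.0214). Etv4 kept its call in 22 and Elk1 in 18 of 26 alternatives. Between genotypes 0 of the 17 were called in untreated cells, with curdlan or on average.

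Spi1 was not called in any comparison. Of 25 measured myeloid genes known to depend on PU.1, 2 were higher and 2 lower with curdlan in wild-type cells, where 7.27% and 12.3% of all genes were. In knockout cells 2 were higher and 4 lower, where 9.29% and 13.2% of all genes were, so the list lay near the background. The Fc receptor gene Fcgr1 rose by 0.77 (adjusted p = 9.03e-05) in the wild type and 0.64 (adjusted p = 0.000426) in the knockout. The kinase genes Fes (-0.39, adjusted p = 0.00472) and Btk (-0.27, adjusted p = 0.0232) were lower and Ncf1 (0.25, adjusted p = 0.0447) was higher in wild-type cells, kept in 25, 20 and 14 of 26 alternatives. In knockout cells Flt3, the receptor gene of dendritic cell precursors, rose by 0.92 (adjusted p = 0.0147), while Tlr4 (-0.33, adjusted p = 0.0251) and Btk (-0.30, adjusted p = 0.0143) fell, kept in 23, 20 and 23 of 26. The wild-type means of Flt3 (6.89 to 7.49) and Tlr4 (10.56 to 10.31) moved the same way with curdlan without a call. Between genotypes 0 of the 25 were called in untreated cells or with curdlan. On average 1 was higher, against 1.48% of all genes. It was the G-CSF receptor gene Csf3r (0.39, adjusted p = 0.0389), kept in 11 of 25 alternatives.

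Several genes of factors that work with PU.1 changed with curdlan. Of 19 measured, 4 were higher and 4 lower in wild-type cells and 4 higher and 3 lower in knockout cells, with medians of 0.12 and 0.06. Of all genes, 7.27% were higher and 12.3% lower in wild-type cells, and 9.29% and 13.2% in knockout cells. Irf8, which binds ETS-IRF composite sites together with PU.1, rose by 0.96 (adjusted p = 9.12e-05) in the wild type and 0.75 (adjusted p = 0.000633) in the knockout. The NF-kB subunit gene Relb rose by 0.81 (adjusted p = 0.00102) and 0.83 (adjusted p = 0.000996), and Tcf4 by 0.87 (adjusted p = 9.12e-05) and 0.80 (adjusted p = 0.000203). Cebpa, a partner in the myeloid lineage, was lower in wild-type (-0.48, adjusted p = 0.00708) and in knockout cells (-0.36, adjusted p = 0.0283), kept in 25 and 18 of 26 alternatives. Cebpb rose with curdlan in knockout cells (0.39, adjusted p = 0.0373), kept in 17 of 26. It was not called in wild-type cells, whose means were 10.32 untreated and 10.67 with curdlan. Tcf4 encodes E2-2, the factor of plasmacytoid dendritic cells and a regulator of Spib there, while Spib changed by -0.03 and 0.31. On average over treatments, Relb was lower in knockout cells (-0.46, adjusted p = 0.0101), as was Irf8 (-0.31, adjusted p = 0.0285), which lost its call in 12 of 25 alternatives. Jun (0.22, adjusted p = 0.0372) and Runx1 (0.17, adjusted p = 0.0338) were higher on average, kept in 10 and 7 of 25.

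The ERK route phosphorylates Ets2 and Elk3. Of 10 measured genes of the route, 2 were higher and 1 lower with curdlan in wild-type cells, and 3 higher and 2 lower in knockout cells. Of all genes, 7.27% were higher and 12.3% lower in the wild type, and 9.29% and 13.2% in the knockout. These shares are the background for each count in this paragraph. The kinase genes Map2k1 (0.77, adjusted p = 0.000168) and Map3k8 (0.51, adjusted p = 0.000823) rose in the wild type, and in the knockout by 0.73 (adjusted p = 0.000295) and 0.40 (adjusted p = 0.00393). Araf was lower in both (-0.24, adjusted p = 0.0128, and -0.25, adjusted p = 0.011), kept in 23 and 22 of 26 alternatives, as was Rps6ka3 in the knockout (-0.27, adjusted p = 0.02), kept in 19. Of 11 ERK feedback genes, 3 were higher and 1 lower in wild-type and 5 higher and 1 lower in knockout cells. Among them Spred1, an inhibitor of the route, rose by 0.46 (adjusted p = 0.000557) and 0.39 (adjusted p = 0.0017), the phosphatase gene Dusp4 by 0.69 (adjusted p = 0.0154) and 0.72 (adjusted p = 0.013), and its relative Dusp5 by 0.61 (adjusted p = 0.00318) and 0.51 (adjusted p = 0.00875). Dusp4 kept its calls in 21 and 23 and Dusp5 in 26 and 24 of 26 alternatives. Dusp7 was lower (-0.37, adjusted p = 0.0361, and -0.34, adjusted p = 0.0429), kept in 17 and 11 of 26 alternatives. Spred3 was called higher in knockout cells, kept in 20 of 26. There it read 7.00, 7.15 and 7.25 untreated, and 7.66, 7.51 and 7.34 with curdlan. Of 15 immediate early targets of SRF and its ETS partners, 4 were higher in wild-type cells, and 2 were higher and 2 lower in knockout cells. Junb rose by 0.55 (adjusted p = 0.00575) and 0.40 (adjusted p = 0.0253), and Mcl1 by 0.29 (adjusted p = 0.00185) and 0.26 (adjusted p = 0.00383). With curdlan, Nr4a1 (0.34, adjusted p = 0.0189) and Zfp36 (0.34, adjusted p = 0.00427) were called higher in wild-type cells only. Btg2 (-0.43, adjusted p = 0.00515) and Srf itself (-0.25, adjusted p = 0.0252) were called lower in knockout cells only. The wild-type means of Btg2 (10.10 to 9.85) and Srf (9.62 to 9.50) went down too. Junb kept its calls in 25 and 19, Mcl1 in 26 and 25, Nr4a1 in 21, Zfp36 in 26, Btg2 in 26 and Srf in 18 of 26 alternatives.

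With Spib and Ehf set aside, the ERK feedback genes alone had calls between genotypes within a treatment, among the lists of ETS, PU.1, ERK and SRF genes. Spry1 and Dusp5, 2 of 11, were lower in knockout cells both untreated and with curdlan, where 1.19% and 0.517% of all genes were called lower. Spry1, which encodes an inhibitor of receptor signalling, read 7.46, 7.69 and 7.64 in untreated wild-type and 6.24, 6.42 and 6.34 in untreated knockout cells. With curdlan it read 7.52, 7.48 and 7.82 against 6.75, 6.63 and 6.42, so the genotypes did not overlap. The differences were -1.26 (SE 0.11, adjusted p = 0.000906) and -1.01 (adjusted p = 0.00337), the latter lost with only the 6 treated arrays fitted (0.0506). Spry1 lies on chromosome 3 close to Il2, the disrupted gene, with 6 protein-coding genes between them in RefSeq (GRCm38.p6). The part of that position in the difference was not tested. Dusp5 was lower on average too (-0.62, adjusted p = 0.00148). Its calls within untreated cells (-0.57, adjusted p = 0.0312) and with curdlan (-0.67, adjusted p = 0.026) were each lost in 10 of 26 alternatives. Etv3 is also on chromosome 3, with 200 protein-coding genes between it and Il2.

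**Figure D5:**
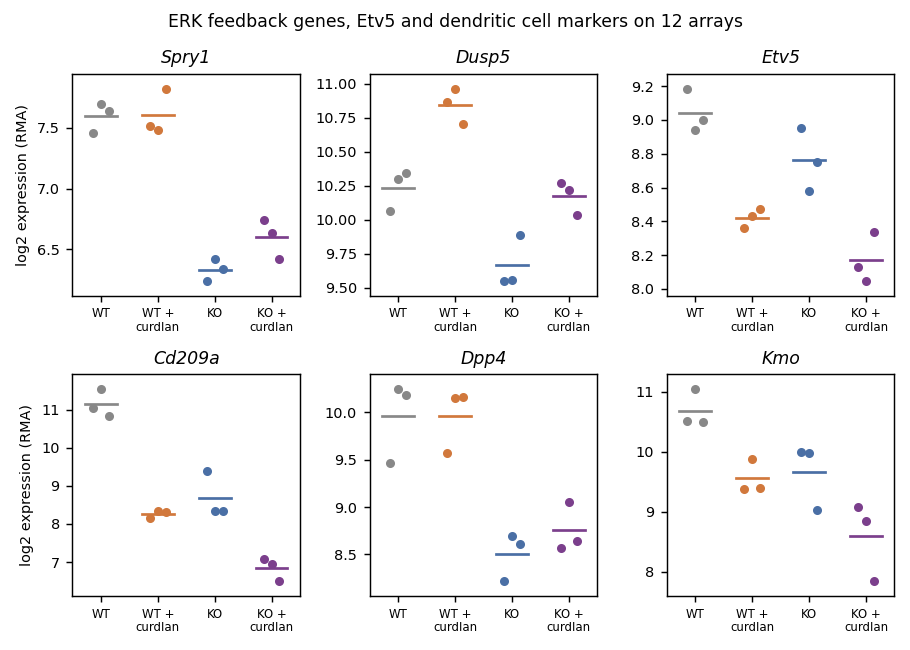
Log2 signal (vertical axis) of Spry1, Dusp5, Etv5, Cd209a, Dpp4 and Kmo in the 4 groups, with a point per array and a bar at each group mean. Spry1 and Dpp4 have lower means in knockout than in wild-type cells in both treatments, and Etv5 is lower with curdlan in both genotypes.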

How the data were processed

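The 12 samples were each hybridised to 1 Affymetrix Mouse Gene 1.0 ST array. The authors deposited log2 values per probe set, made with RMA per the submitters' processing notes. The sources used here give no version of it. Of 34760 probe sets, 21640 carried 1 gene symbol, 1321 several and 11799 none listed; several per gene were reduced to the one with the highest mean, which gave 19937 genes. No further normalisation or filter was applied.

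limma 3.58.1 (R 4.3.3) fitted a mean per group over all 12 arrays (8 residual degrees of freedom, two-sided). Adjusted p-values are Benjamini-Hochberg over all genes, with a threshold of 0.05. The number of arrays limits the precision. The members and lists were chosen with earlier results of these data known. By rule, the text names all members, up to 4 called genes of largest change per list and contrast described, other called ETS genes, Il2, Il2ra and Clec7a as checks, and for Spib and Ehf the 5 genes of highest and 2 of lowest correlation. Itgax, H2-Ab1, Cdh1, Siglech and the markers named by their quartile were named after their values were seen.

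Whether replicate numbers pair samples was checked on deviations from group means. Same-numbered samples correlated by 0.368 to 0.604 within a genotype. Between genotypes they correlated by 0.105 to 0.254 untreated and by -0.134 to 0.328 with curdlan. Numbers were therefore taken to pair samples within a genotype and between the untreated groups, not between the treated groups. The main fit holds no such block, and fits with a block are given as alternatives. Promoters were searched with Python 3.11.15.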

Additional observations from a re-analysis of the deposited data

How the results depend on the processing

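Over 27 settings, the called values of the 7 tested members were recomputed 207 times; 178 kept call and direction, 29 lost the call and 0 changed sign. Of 871 recomputed uncalled values, 6 passed the threshold and 35 changed sign. Spib differed by -1.75 to -1.29 and Ehf by -1.68 to -1.27 between untreated genotypes. Without 1 array or culture, members called of 7 ranged from 1 to 3 higher and 0 to 1 lower with curdlan in the wild type, from 0 to 2 higher and 0 to 1 lower in the knockout, and from 0 to 2 higher and 0 to 1 lower in the averaged genotype contrast. Fitting only the 6 knockout arrays left 1 higher and 0 lower with curdlan, and a trended, robust variance gave 1 lower in the averaged contrast. The cause was not tested, beyond fewer samples.

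A replicate block changed no other member call than those given beside their genes. As a block over both genotypes, it raised the genes called between genotypes from 283 to 699 untreated, from 124 to 450 with curdlan and from 1005 to 1621 on average. With culture as a random block these counts were 386, 164 and 682. Replicate numbers did not pair the treated groups, so the 450 and 1621 rest on a pairing not seen there. Only the 6 arrays compared gave 70 and 15 in place of 283 and 124. Without 1 array or culture, 9 to 608 genes were called untreated, 18 to 299 with curdlan, 325 to 1431 on average and 0 to 3 in the interaction. For curdlan, 3899 became 1841 to 4011 in the wild type and 4481 became 1079 to 5284 in the knockout. With all arrays and culture as a fixed block, 5258 genes were called in the wild type and 6433 in the knockout. As a random block, it gave 5298 and 6699. The number of arrays limits precision, and Ehf and Ets1 are near background on 5 and 2 of 12 arrays.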

Other observations

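Of 10 endothelial markers, 2 were higher and 1 lower with curdlan in wild-type cells, where 7.27% and 12.3% of all genes were. In knockout cells 2 were higher and 0 lower, where 9.29% and 13.2% of all genes were. The receptor gene Kdr rose by 1.70 (limma, adjusted p = 0.00736) and 1.54 (adjusted p = 0.0126), kept in 24 and 22 of 26 alternatives, and Cdh5 by 0.66 (limma, adjusted p = 0.00193) and 0.57 (adjusted p = 0.00463). Vwf was lower in wild-type cells (-0.37, limma, adjusted p = 0.00607) and changed by -0.13 (adjusted p = 0.242) in knockout cells. Between genotypes 0 of the 10 were called in untreated cells, with curdlan or on average.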
